A study of Mus musculus with 10 samples.

Results

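The transcriptome of lumbar motor neurons was described in wild-type mice alone, from 5 of the 10 libraries of a study that also sequenced 5 HSA-NRTN libraries, which are not used here. Each library held polyadenylated RNA from 1 mouse, taken as a pool of about 50 motor neurons cut by laser from frozen lumbar spinal cord. The members were the 5 libraries whose genotype label was wild-type, and they came from littermates of the transgenic animals, with no treatment given in the labels. Pools 1, 3 and 4 came from females and pools 2 and 5 from males, and age, strain and litter were not given in the sources used here. Captured cells showed a nucleolus and covered more than 200 square micrometres in sections of 12 micrometres, so the pools stand for the larger motor neurons. A pool is a mixture, and fewer cells of a type and less RNA per cell cannot be told apart in it.

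The pools held 3688833 to 6064983 gene counts, and 30.8% to 39.5% of the reads in each file were counted to genes. Smart-seq2, the library method, amplifies full-length cDNA by PCR, tags no molecules and keeps no strand. The files tally 19.9% to 30.8% of reads per pool as not uniquely aligned, and these entered no gene, so genes with near-identical copies were undercounted. Synthetic spike-in RNA made up 4.86% of gene and spike-in counts in pool 1 and 0.198% in pool 5, with the other pools between them. Levels of different genes are compared below as level per length, which is the count divided by the merged exon length and scaled so that the nuclear genes of each pool sum to 1000000. Levels of the same gene in different pools are compared as CPM, the counts per 1000000 gene counts with library sizes scaled by TMM. Values are mean ± SD over the 5 pools unless each pool is given, and the pools are always listed in the order 1 to 5.

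A motor neuron of the spinal cord sends a long axon out of the cord to skeletal muscle, where it releases acetylcholine. Chat makes acetylcholine, Slc18a3 (the vesicular acetylcholine transporter) loads it into vesicles and Slc5a7 takes choline back up. Isl1, Isl2 and Mnx1 are homeodomain factors of motor neuron identity, and Prph encodes peripherin, an intermediate filament of neurons with peripheral axons. Large axons are filled with neurofilaments and depend on motor proteins, mitochondria and firing channels.

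For Prph, Chat and Slc18a3, which mark these cells, and for Calca, the highest peptide gene, the 60 bases before the RefSeq start are shown, because the check of the cell type and the peptide levels below turn on these genes. RefSeq coordinates are on GRCm38.p6, sequences run 5′ to 3′ on the transcript strand, and capitals mark TATAA and GGGCGG or its reverse complement. The Prph stretch lay at chr15:99055114-99055173 on the plus strand, Chat at chr14:32465910-32465969 on the minus strand, Slc18a3 at chr14:32464851-32464910 on the minus strand and Calca at chr7:114636358-114636417 on the minus strand.
Prph: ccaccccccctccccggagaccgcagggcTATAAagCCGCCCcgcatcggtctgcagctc
Chat: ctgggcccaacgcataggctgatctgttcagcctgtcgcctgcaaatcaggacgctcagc
Slc18a3: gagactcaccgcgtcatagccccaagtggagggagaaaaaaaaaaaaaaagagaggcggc
Calca: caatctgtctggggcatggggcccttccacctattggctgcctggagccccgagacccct
The Prph stretch held both motifs within these bases, and the other 3 stretches held neither. Within 250 bases before the start, Slc18a3 did hold GGGCGG or its reverse complement, and Chat and Calca did not. Slc18a3 (chr14:32462438-32464850) lies inside Chat (chr14:32408203-32465989) on the same strand of GRCm38, an arrangement called the cholinergic gene locus.

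All 4 marker genes were detected in all 5 pools. Prph stood at 642, 850.3, 549, 857 and 602 CPM. Slc18a3 stood at 437, 538, 361, 505 and 421 CPM, and Chat at 86.7, 86.6, 95.0, 69.0 and 91.8 CPM. These 3 genes kept close levels in the 5 pools, with coefficients of variation (CV, the SD divided by the mean) of 0.206, 0.155 and 0.117. Isl1 stood at 31.5, 38.0, 9.32, 38.1 and 15.1 CPM and was lowest in pool 3, with a CV of 0.507.

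Per length, the markers lay far apart. Prph had a level of 1269 ± 228 and rank 107 among nuclear coding and long non-coding genes. Slc5a7 had 911 ± 299 and rank 154, and Slc18a3 had 682 ± 110 and rank 222. Chat had only 66.9 ± 11.8 and rank 2271, below Slc18a3, whose gene it encloses. The factors were lower still, with levels of 26.7 ± 13.1 for Mnx1, 24.8 ± 8.29 for Isl2 and 24.1 ± 11.8 for Isl1, which do not differ beyond their spread.

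**Figure D1:**
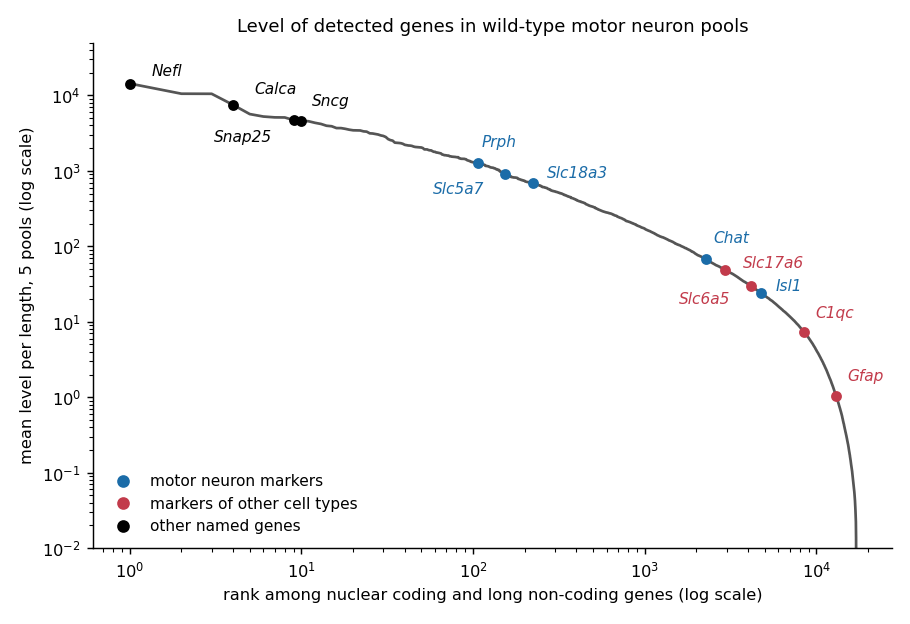
Mean level per length over the 5 pools (vertical, log scale) against rank among nuclear coding and long non-coding genes (horizontal, log scale), with 13 genes marked in 3 colours for motor neuron markers, markers of other cell types and other named genes. Prph, Slc5a7 and Slc18a3 sit at ranks 107 to 222, and Isl1 sits at rank 4743, beside the interneuron gene Slc6a5.

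Markers of the cells around motor neurons were also present. Per length, the motor neuron markers held 0.300% of the nuclear level, the astrocyte markers 0.0450% and the oligodendrocyte markers 0.0282%. The 7 motor neuron markers summed to 2983, 3444, 2080, 2626 and 2332 CPM. The 8 oligodendrocyte markers, among them the myelin gene Mbp, summed to 676, 428, 241, 213 and 473 CPM and were all detected in every pool. The 8 astrocyte markers summed to 652, 680.4, 203, 512 and 460.0 CPM, but 69.0% of that was Aldoc, a glycolytic enzyme that also belongs to the glycolysis list, and Gfap had a level of 1.04 ± 1.05. Without Aldoc the astrocyte sums were 317.9, 247.6, 56.6, 63.1 and 91.1 CPM, highest in pool 1. Pool 1 was highest in both glial lists once Aldoc was left out.

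Microglial markers summed to at most 21.3 CPM, blood markers to at most 13.2, endothelial markers to at most 15.3 and mural markers to at most 10.7 in any pool. Of these lists, Tmem119 of microglia and Kcnj8 of mural cells had no count in any pool. The ependymal markers Ccdc153, Rarres2 and Tmem212 also had none, as did Cspg4 of oligodendrocyte precursors. A count of 0 over all pools allows up to 0.125 CPM, a limit that covers counting error only.

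The sums of the Schwann cell and fibroblast lists came mostly from a single gene each. Pmp22, a myelin membrane protein gene, made up 99.9955% of the Schwann cell sum at 998, 1454, 791, 1442 and 1351 CPM, while Prx, another myelin gene of these cells, had a count in 1 pool only. Dcn, which encodes the matrix protein decorin, stood at 0.218, 275, 26.8, 337 and 20.9 CPM and made up 95.4% of the fibroblast sum, while Col1a1 and Col3a1 had no count. Lum, which encodes the related protein lumican, stood at 0, 6.74, 3.64, 6.55 and 4.34 CPM, and Col1a2 at 10.3 CPM in pool 1 and at most 0.336 in the others. Dcn and Lum were both highest in pools 2 and 4, and the part of fibroblast RNA in this was not tested.

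Interneuron markers differed widely between pools. Slc6a5, the glycine transporter of inhibitory terminals, stood at 139, 22.9, 83.0, 0 and 41.9 CPM. Slc32a1, which loads glycine and GABA into vesicles, stood at 24.7, 4.31, 5.00, 0 and 18.1 CPM. Both genes were absent from the counts of pool 4 and highest in pool 1. The other inhibitory markers did not share this order. Gad2 stood at 7.73 CPM in pool 5 and at most 1.89 CPM in the others. Without Slc6a5, the inhibitory sum was 24.9, 10.5, 5.23, 0.672 and 28.9 CPM, highest in pool 5. Slc17a6, a vesicular glutamate transporter, stood at 19.9, 0.270, 28.6, 4.37 and 285 CPM, and the other 4 excitatory markers, Slc17a7, Slc17a8, Lmx1b and Tlx3, had no count in any pool. The single high value of pool 5 was thus carried by 1 of the 5 excitatory markers, and what it came from was not tested.

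**Figure D2:**
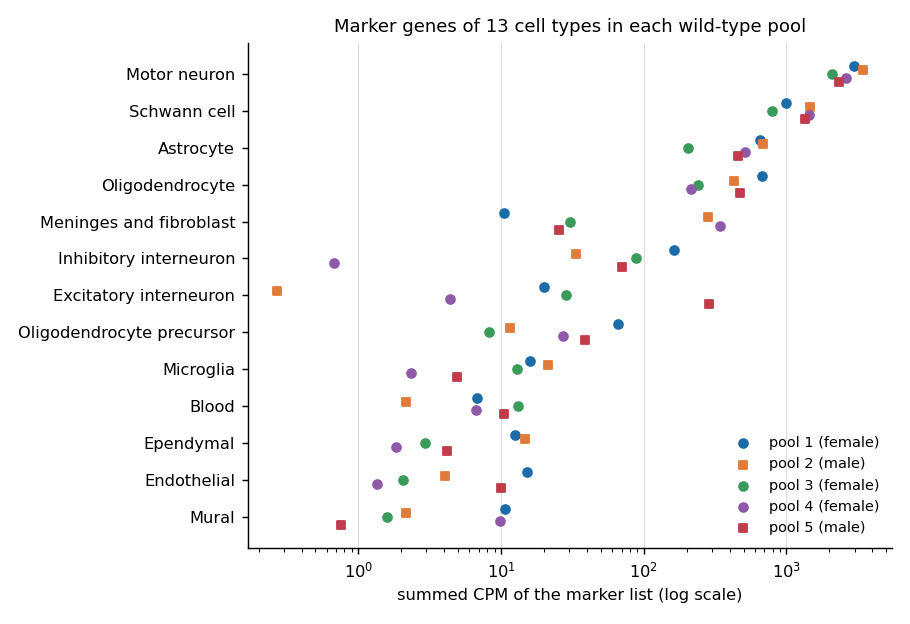
Summed CPM of each marker list (horizontal, log scale) for 13 cell types, with 1 point per pool, circles for females and squares for males. Motor neuron markers lie between 2080 and 3444 CPM in the 5 pools, and the excitatory interneuron list spans 0.270 to 285 CPM.

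Detection was uneven at low levels. Of 51912 genes in the files, 21735 had at least 1 count in some pool and 11315 of these (52.1%) in all 5. Another 4349 genes (20.01%) were seen in 1 pool only. Among 21857 nuclear protein coding genes, 10198 (46.7%) were detected in all pools. The counts detected in gene families below are to be read beside this share. Single pools detected 14090, 15202, 17492, 16137 and 15843 genes. Pool 3 detected the most genes at the second lowest depth, and thinning every pool to 3688833 counts left 13799, 15202, 17319, 15460 and 15455, with pool 3 still highest and pool 1 lowest.

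Most counts came from protein coding genes of the nucleus, which held 88.6% ± 3.19 of gene counts. Mitochondrial messages held 5.92% ± 2.43, mitochondrial ribosomal RNA 2.00% ± 1.43, long non-coding genes 1.55% ± 0.335 and pseudogenes 0.419% ± 0.132. All mitochondrial genes together held 12.9%, 8.62%, 4.99%, 5.34% and 8.12%, so pool 1 held more than the other 4 pools. A single nuclear gene annotated as ribosomal RNA accounted for most of the 0.998% ± 0.293 held by that class.

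All 13 messages encoded by mitochondrial DNA were detected in all pools. The message mt-Nd1, of a complex I subunit, had a level of 67484 ± 40596, on the scale set by the nuclear total. For mt-Cytb of complex III the level was 56946 ± 18878 and for mt-Nd4 of complex I 26101 ± 17044, while the lowest of the 13, mt-Nd4l, had 23.2 ± 12.8. The level of mt-Nd1 was highest in pool 1, with values of 135734, 74299, 41066, 41401 and 44918. Reads that also align to nuclear copies of mitochondrial DNA are not unique and were not counted, and how far this lowered each message was not tested.

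The level was concentrated in few genes. The 10 highest nuclear genes held 7.34% ± 0.300 of the nuclear level, the 100 highest 26.9% ± 1.22 and the 1000 highest 63.0% ± 2.06. Of the 100 highest genes by mean, 80 to 87 were also among the 100 highest of each single pool. A mean level of at least 1 was reached by 13104 of 30036 nuclear coding and long non-coding genes, a level of at least 100 by 1640 and a level of at least 1000 by 142.

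Neurofilament genes stood at the top. Nefl, the light subunit, had the highest mean level of the nuclear coding and long non-coding genes. It stood at 20208, 16789, 9849, 8435 and 16594 in the 5 pools. Nefm, the medium subunit, had 12367, 11793, 8763, 6320 and 13291, and Nefh, the heavy subunit, had 4376, 4216, 3687, 3367 and 4172. All 3 subunits were lowest in pools 3 and 4 on this scale. By mean CPM, Nefm (16430) stood above Nefl (13103). The merged length of Nefm is 5782 bases and its longest transcript 3680, so the order of Nefl and Nefm depends on the length used. Ina, alpha-internexin, was the lowest of the 5 neuronal filament genes at 267 ± 157, and the 5 together held 3.04% of the nuclear level. Nefl (chr14:68083863-68089095, plus strand) lies within the annotated span of Nefm (chr14:68082590-68124846, minus strand) and the counts carry no strand, so reads from any overlapping exons cannot be separated by strand.

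Calcium binding and peptide genes followed. Calm2, a calmodulin gene, had levels of 9926, 10144, 10675, 14838 and 7087. Calca, which encodes calcitonin and the peptide CGRP, had 5906, 6140, 11386, 8851 and 5166. Calca was higher in pools 3 and 4 than in the other 3. Snap25, a core protein of vesicle fusion, had 4829, 4154, 4660, 4908 and 5002 and varied little. Sncg, gamma-synuclein, had 2883, 3561, 6185, 8722 and 1725, and was highest in pool 4 and lowest in pool 5. Spp1, osteopontin, which marks alpha motor neurons, had 4547 ± 1090.

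Energy metabolism supplied the largest group among the highest genes. Among the 25 highest genes, 8 encode nuclear subunits of the respiratory chain or the ATP synthase, namely Ndufa1, Ndufa4, Cox6b1, Cox6a1, Atp5mpl, Cox7b, Ndufc2 and Cox7a2, with mean levels of 5659 (Ndufa1) down to 3146 (Cox7a2). Among the 100 highest there were 22 such genes, and 99 genes of this kind held 6.57%, 9.74%, 10.9%, 9.53% and 7.46% of the nuclear level. Pools 1 and 5 had the lowest shares. Slc25a4, which exchanges ATP and ADP across the inner membrane, added 3308 ± 1061.

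The rest of the 25 highest genes were of mixed function. Tuba1a, an alpha-tubulin, had 5250 ± 1954, Stmn3, a stathmin that binds tubulin, had 3513 ± 375 and Tmsb4x, which sequesters actin, had 3450 ± 1293. Uchl1, a ubiquitin hydrolase abundant in neurons, had 3609 ± 1063. Pcp4, a calmodulin regulator, had 4187 ± 921, S100a10 had 3439 ± 542, Lgals1, a galectin, had 4333 ± 1965 and Ndrg4 had 3431 ± 754. No ribosomal protein gene was among the 100 highest, a class with many processed copies in the genome.

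Among genes of acetylcholine signalling, Slc10a4, a vesicular transporter of cholinergic and aminergic cells, had the highest level and a small spread. It stood at 763, 864, 888, 891 and 741 CPM, with a level of 1429 ± 73.5. Chrm2, a muscarinic receptor, had a level of 301 ± 49.9 and Ache, which degrades acetylcholine, 110.5 ± 39.7. Of 21 nicotinic and muscarinic receptor genes, 2 were detected in all pools, 6 in some and 13 in none. Chrm2 was the only member above a level of 100, and the next, Chrnb2, had 6.86 ± 2.41.

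Markers of motor neuron subtypes were present on several sides. Chodl, a gene of fast motor neurons, stood at 1844, 1729, 1626, 1854 and 1655 CPM, with a CV of 0.0603 and a level of 1155 ± 105. Kcng4 and Mmp9, 2 other genes of fast motor neurons, had levels of 331 ± 34.5 and 109 ± 19.0. Of the 4 genes listed for slow motor neurons, Esrrg had 72.6 ± 27.3, Sv2a 24.9 ± 23.7, Esrrb 4.16 ± 3.08 and Kcnn3 2.02 ± 2.41. Among 6 gamma motor neuron genes, Esrrg, which stands in both lists, and Gfra1 (51.2 ± 29.2) had levels above 10, and Htr1d had no count. The sum of the fast list was dominated by Calca, which held 61.0% of it, and without Calca it was 2404, 2222, 2139, 2471 and 2086 CPM.

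Transcription factors of motor neurons had low levels. Of 15 genes in this list, which also holds the enzyme gene Aldh1a2, 6 were detected in all pools. Aldh1a2, Ebf2 and Onecut1 had no count. Lhx4 had a level of 19.8 ± 3.56 and Foxp1, a factor of limb-innervating motor columns, 11.3 ± 5.80. Of 39 Hox genes, which set position along the body axis, 14 were detected in all pools and 8 in none. Hoxc10, a lumbar gene, led with 229 ± 137, followed by Hoxc8 with 121 ± 73.5. Hoxd10, also lumbar, stood at 0.218, 49.1, 0, 70.9 and 17.5 CPM, present in some pools and almost absent from pools 1 and 3.

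The cytoskeleton beyond neurofilaments was detected almost in full. Of 12 tubulin genes, 11 were found in all pools, with Tubb2a at 2904 ± 976 and Tubb3, the neuronal beta-tubulin, at 2367 ± 316. All 15 axonal transport motor genes were detected in all pools, 11 of them above a level of 100. Klc1, a kinesin light chain, had 1516 ± 509, Dync1i1, a dynein chain, 818 ± 241.5 and Kif5c, a kinesin heavy chain, 563 ± 29.9. Among tubulin-binding genes, Stmn2 had 2100 ± 256 and Map1b 1030 ± 315.

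Genes of vesicle release were also nearly complete. Of 23, 21 were detected in all pools, and Stx1a had no count. Below Snap25 came Cplx1, a complexin, at 2161 ± 268.9, Rab3a at 1648 (CV 0.233 in CPM) and Syt11 at 1319 ± 406. Vamp1, a synaptobrevin, had 1030 ± 446 and its relative Vamp2 had 23.8 ± 10.3. Both are vesicle proteins of the fusion complex, and their levels differed by far more than the spread between pools. Of the synuclein genes, Sncg had 4615 ± 2820 and Sncb 43.5 ± 26.8.

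Peptide genes ranged widely. Their median level was 47.3, and of 20, 11 were detected in all pools, and Sst and Tac1 had no count. Calca and Calcb, both of which encode forms of CGRP, led with 7490 ± 2587 and 2169 ± 834. Their genes lie 82285 bases apart on chromosome 7. Uts2b, a urotensin-type peptide, had 753 ± 240, Cck, cholecystokinin, 437 ± 101 and Chga, chromogranin A of dense-core vesicles, 357 ± 142.

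Channels and receptors covered part of each family. Of 94 potassium channel genes, 46 were detected in all pools and 28 in none, beside 46.7% of all nuclear protein coding genes in all pools. Kcna2 and Kcna1, which encode channels of the axonal membrane, had levels of 404 ± 168 and 323 ± 118, near the silent subunit Kcng4 at 331 ± 34.5. Of 14 sodium channel genes, 8 were found in all pools, led by the beta subunit Scn4b at 306 ± 145 and the alpha subunits Scn1a at 176 ± 56.4 and Scn8a at 159 ± 41.1. Scn4a, Scn7a, Scn10a and Scn11a had no count. Of 26 calcium channel subunit genes, Cacna2d3 alone was above a level of 100, at 122 ± 24.3.

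The leading receptor genes for inhibitory input had higher levels than those for glutamate. The glycine receptor genes Glrb and Glra1 had levels of 1249 ± 351 and 479.7 ± 287, and the GABA-A receptor gene Gabra2 had 284 ± 48.3. The highest ionotropic glutamate receptor genes were Gria4 at 184 ± 43.7, Gria3 at 134 ± 35.8 and Gria2 at 117 ± 45.3, all of the AMPA type. The summed level was 0.271% of the nuclear level for 24 GABA-A and glycine receptor genes and 0.0561% for 16 glutamate receptor genes.

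Genes of protein quality control were found throughout. All 19 chaperones were detected in all pools, led by Hsp90aa1 at 1124 ± 435 and Hsp90ab1 at 952 ± 242.8. Of 48 proteasome genes, 42 were detected in all pools, and Psma8, Psmb8, Psmb9 and Psmb11, which encode subunits of germ-line, immune and thymic forms, had no count. Psmb2 had 1536 ± 720 and Psma6 1426 ± 462. The small heat shock gene Hspb1 stood at 35.4, 60.7, 218, 292 and 27.9 CPM, high in pools 3 and 4.

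Genes tied to motor neuron disease were nearly all present. Of 23 amyotrophic lateral sclerosis and spinal muscular atrophy genes in the files, 22 were detected in all pools. Sqstm1, the autophagy receptor p62, had a level of 1710 ± 538, Ubqln2 374 ± 167, Chchd10 371 ± 90.5 and Pfn1 240.2 ± 112. Sod1, which removes superoxide, stood at 291, 336, 873, 1079 and 427 CPM, again higher in pools 3 and 4 than in the rest.

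Among glycolytic genes, all 16 were detected in all pools, led by Aldoa at 2063 ± 275, Ldhb at 1602 ± 340 and Tpi1 at 618 ± 49.7. This is the order by uniquely aligned reads, in which genes with near-identical copies, such as Gapdh, are undercounted. Complex I was detected in 45 of 46 genes in all pools, with a median level of 499. Ribosomal proteins had a median level of 90.0, with 78 of 82 detected in all pools and Rpl10l and Rpl39l at 0. Immediate early genes, which rise on activity or handling, were low, with Jun at 69.7 ± 43.0 and Fos at 23.3 ± 6.55, and Egr3 had no count. Of 15 long non-coding RNAs, 13 were found in all pools, led by the nuclear RNA Malat1 at 1463 ± 455 and the imprinted Meg3 at 448 ± 270.

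The spread between pools was measured for 6133 nuclear genes with a mean of at least 20 CPM. Their median CV was 0.350, with quartiles of 0.242 and 0.481, and the range ran from 0.0323 to 2.18. The spread fell as the level rose. Genes with a mean of 20 to 100 CPM had a median CV of 0.396, and genes of 500 CPM and over had 0.226. Counting error alone would give 0.0724 and 0.0165 in these bins. For scale, the 12 most counted spike-ins had CVs of 0.152 to 0.685 with a median of 0.387, taken on each spike-in's share of the spike-in total.

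The most even genes belonged to many functions. Wdr26, a subunit of a ubiquitin ligase, stood at 120.0, 118, 111, 120.2 and 118 CPM, a CV of 0.0323. Emc3, of the membrane insertion complex of the endoplasmic reticulum, had a CV of 0.0330 and Hspbp1, a cochaperone, 0.0355. Nefh was the fourth most even gene on the CPM scale, at 4508, 4521, 4205, 4238 and 4210 CPM, a CV of 0.0376, although Nefl and Nefm had CVs of 0.286 and 0.203. The other 11 of the 15 lowest were Nsd3, Chmp2b, Actr10, Camkk1, Cyp2u1, Rab14, Cacna1g, Pcdh7, Nrp1, Lrrn3 and Fam210a, with CVs up to 0.0585. Among these are Chmp2b of the membrane-remodelling ESCRT machinery, Actr10 of the dynactin complex, Rab14 of vesicle traffic and Cacna1g, a low-threshold calcium channel. Such ranks rest on 5 values. With 1 pool left out, the CV fell by more than 1.5 times for 9 of these 15 genes, namely to 0.00914 for Wdr26 without pool 3, 0.0204 for Emc3, 0.0275 for Nsd3 and 0.0242 for Nrp1 without pool 5, 0.0235 for Hspbp1 without pool 4, 0.0126 for Camkk1 and 0.0326 for Pcdh7 without pool 2, and 0.0218 for Rab14 and 0.0280 for Lrrn3 without pool 1. In the same way, 39 to 54 of the 100 most even genes remained among the 100 most even when a pool was left out.

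Genes often used as references in expression work spanned the whole range. Atp5b, a subunit of the ATP synthase, had a CV of 0.0926, at percentile 1.17 of the 6133 genes. Canx had 0.134, Ywhaz 0.172, Hprt 0.244, Actb 0.385, B2m 0.543, Pgk1 0.641 and Ppia 0.922. Actb and the genes after it were thus more variable than the median gene. B2m, Pgk1 and Ppia were each highest in pools 3 and 4, as were several gene groups described below. How far that shared difference between pools made up their CVs was not tested. Gapdh and Eef1a1 fell below 20 CPM, and both have many processed copies that unique counting does not resolve.

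**Figure D3:**
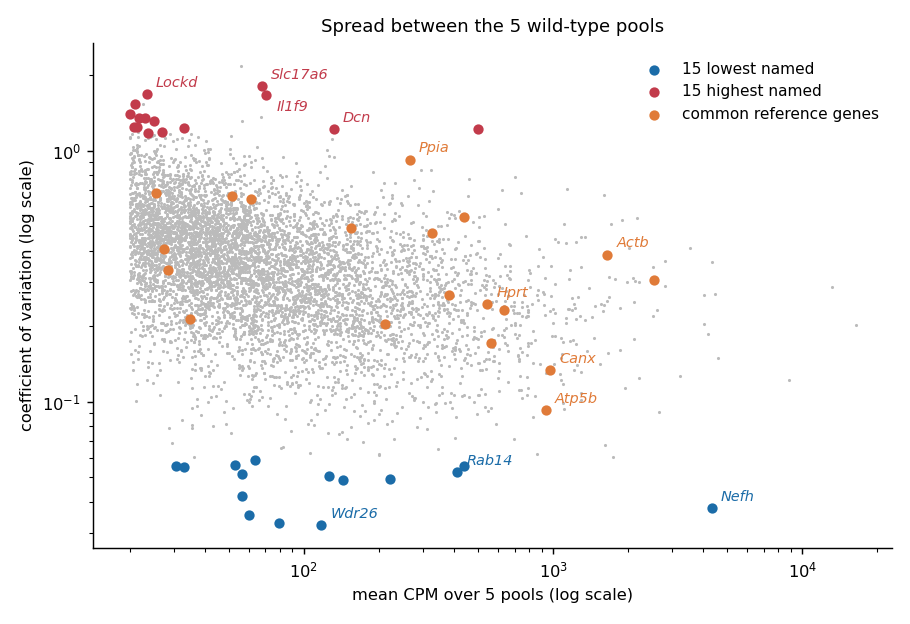
CV (vertical, log scale) against mean CPM (horizontal, log scale) for genes with a mean of at least 20 CPM, with 1 point per gene and 3 colours for the 15 lowest and the 15 highest autosomal genes with a conventional symbol and for common reference genes. Nefh lies apart at the right with a CV of 0.0376, and Ppia lies among the most variable genes with 0.922.

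The most variable genes were usually high in 1 pool, a pattern that the choice by highest CV over 5 pools favours. Named here are 15 autosomal genes with a conventional symbol, all with a CV of at least 1.18. Lockd, a long non-coding RNA, stood at 93.7, 4.31, 4.77, 2.69 and 11.5 CPM. Il1f9, a cytokine of the interleukin-1 family, stood at 11.6, 51.5, 11.1, 279 and 0 CPM, and Tspo, a mitochondrial membrane protein gene, at 2.62, 17.5, 1.36, 77.9 and 5.85 CPM. Lockd was high in pool 1 only, and Il1f9 and Tspo were highest in pool 4 and next highest in pool 2. Adra2c, Atp13a1, Mef2c, Slc2a13, Vti1a, Slc6a17 and Mbd3 were highest in pool 1, and Cdc7, a cell cycle kinase gene, was highest in pool 5 at 70.0 CPM beside Slc17a6. With pool 1 left out, the CVs of Lockd, Adra2c, Atp13a1, Mef2c, Vti1a and Mbd3 lay between 0.277 and 0.669. With pool 5 left out, the CV of Slc17a6 went from 1.80 to 0.999 and that of Cdc7 from 1.40 to 0.711.

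Of the 15, 5 genes had pools 2 and 4 as their highest pair, Il1f9 and Tspo among them. Lxn, latexin, stood at 132, 782, 80.5, 1455 and 59.0 CPM, Dcn at the values given above and Ppp1r1c at 0.874, 59.9, 0.682, 47.7 and 0.189 CPM. Each of these was lower in the other 3 pools. Pools 2 and 4 are of different sex, and the labels give no factor that they share.

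**Figure D4:**
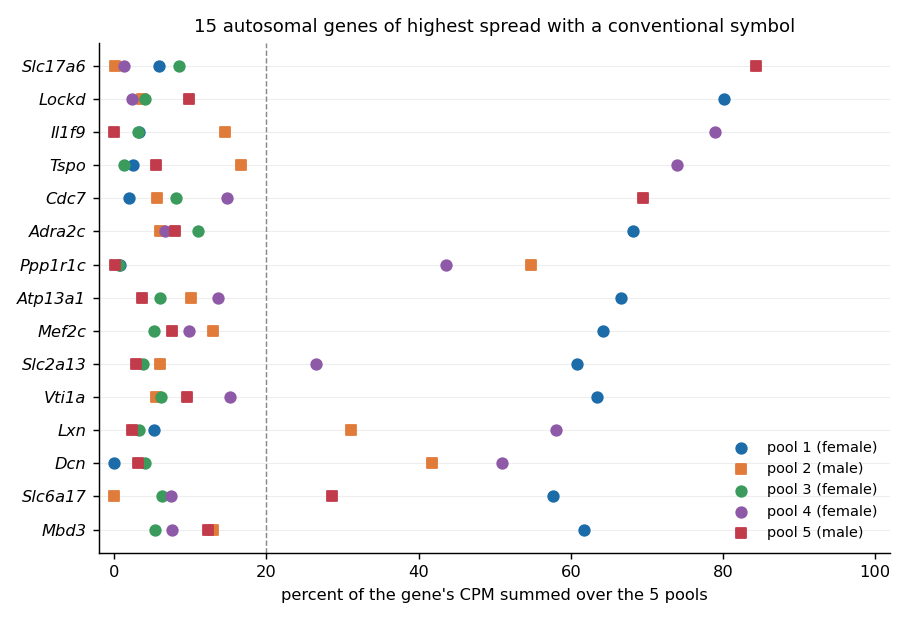
Percent of each gene's CPM, summed over the 5 pools, that came from each pool (horizontal) for the 15 autosomal genes of highest spread that have a conventional symbol, with circles for females and squares for males and a dashed line at the equal share of 20%. Of the 15 genes, 8 are highest in pool 1, 4 in pool 4, 2 in pool 5 and 1 in pool 2.

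In 98 genes (1.60% of the 6133) a single pool held more than 50% of the summed CPM. That pool was pool 1 for 46 genes, pool 4 for 31, pool 5 for 17, and pools 2 and 3 for 2 each. Across all 6133 genes, the highest pool was pool 1 for 29.0%, pool 2 for 13.6%, pool 3 for 11.7%, pool 4 for 25% and pool 5 for 20.7%. No count in at least 1 pool was found for 14 genes with a mean of at least 20 CPM, 7 of them in pool 1. Psmb7, a core proteasome subunit, stood at 0, 90.6, 193, 306 and 31.3 CPM, and Ctnnb1, beta-catenin, at 0, 13.2, 55.9, 63.0 and 24 CPM. Pools 2 to 5 had zeros in 1, 2, 3 and 2 of the 14 genes. Pool 1 also had the lowest gene detection of the 5 pools, and what the zeros came from was not tested.

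Pools differed along a few shared directions. The correlation of log2(CPM + 1) across genes was highest between pools 3 and 4, at r = 0.899, and lowest between pools 1 and 4, at r = 0.711. Genes are not independent replicates, so these are descriptions. The first principal component held 46.9% of the variance and set pool 1 (score 0.72) against pools 3 (-0.27) and 4 (-0.47). Pool 5 stood out on the second, with 25.9% of the variance, and pool 2 on the third, with 16%.

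Gene length moved with the pools as well. In the 25% of genes with the shortest merged exons, the median deviation of log2 CPM from the mean of the pools was -0.14, -0.03, 0.15, 0.30 and -0.20. In the longest 25% it was 0.15, 0.02, -0.08, -0.06 and 0.12. In each pool the signs of short and long genes were opposite. Pool 1, at 1 end of the first component, also had the highest share of spike-ins (4.86%) and of mitochondrial counts (12.9%) and the fewest genes detected (14090), and the part of these in the differences was not tested.

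Several gene groups were high in pools 3 and 4. Of 45 complex I genes in this set, whose median length was 1718 bases, 23 were highest in pool 4, 17 in pool 3 and none in pool 5, with median deviations of -0.50, 0.00, 0.43, 0.46 and -0.35. Of 37 proteasome genes, 23 were highest in pool 4. Of 67 ribosomal protein genes, 27 were highest in pool 4 and 23 in pool 3. Antioxidant and iron genes, such as Txn1 (2075 ± 646) and Fth1 (1730 ± 718), were highest in pool 4 for 7 of 10, with median deviations of -0.61, -0.19, 0.44, 0.85 and -0.56. Against these, 5 of 7 sodium channel genes were highest in pool 1 (median length 12459 bases) and 8 of 15 axonal transport motor genes in pool 5 (6509 bases). Length did not order all lists in this way. For 9 ionotropic glutamate receptor genes (12275 bases) the median deviations were -0.38, -0.01, 0.29, -0.01 and 0.09. For 5 Hox genes (2744 bases) they were 0.93, -0.19, -0.26, -0.74 and 0.47. Over all 6133 genes, 29.0% were highest in pool 1, 25% in pool 4 and 20.7% in pool 5.

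**Figure D5:**
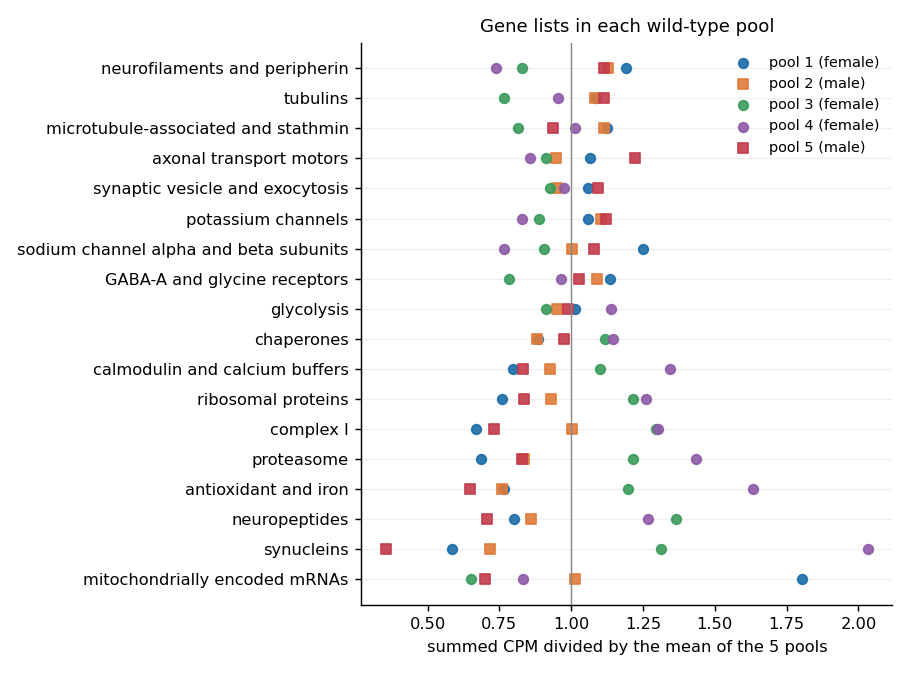
Summed CPM of 18 gene lists in each pool, divided by the mean of the 5 pools (horizontal), with circles for females and squares for males and a line at 1. Pool 4 is highest for complex I, the proteasome, antioxidant genes and synucleins, and pool 1 is highest for mitochondrially encoded messages.

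The promoters of these sets were compared by 2 motifs. TATAA was searched on the transcript strand from 40 to 20 bases before the RefSeq start, and GGGCGG on both strands within 250 bases before it. Of the 100 highest genes, 73 had a promoter in the RefSeq table, and 4.11% held TATAA and 50.7% GGGCGG. Of the 100 most even genes, 72 had a promoter, with 1.39% and 63.9%. Of the 100 most variable, 78 had a promoter, with 3.85% and 48.7%. The TATAA shares of the highest, most even and most variable sets rest on 3, 1 and 3 genes, too few to compare. The same shares were 1.47% and 61.1% over 4885 genes with a mean of at least 20 CPM and 3.61% and 32.9% over all 27025 promoters. The most even genes were near the shares of all measured genes in both motifs.

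Sex was the only labelled factor that differed among the pools, with 3 female and 2 male animals. Of 12632 genes tested with edgeR's quasi-likelihood test with Benjamini-Hochberg adjustment, 1 gene passed at an adjusted p under 0.05, which is 0.00792% of those tested, while 363 had an unadjusted p under 0.05. The gene was Ddx3y, an RNA helicase gene of the Y chromosome, at 0.218, 172, 0, 0 and 165 CPM with 1 count in the females and 1513 in the males (log2 fold change female minus male -10.81, SE 0.77, adjusted p = 0.000979 by edgeR). The ratio of pooled counts, male over female, was 2507 with an exact 95% interval of 449 to 99093 for counting error. Under limma voom the adjusted p of Ddx3y was 0.998, and DESeq2 called 22 genes, Ddx3y among them.

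The other sex-linked genes separated the pools by level but did not pass. Xist, the RNA of the inactive X chromosome, stood at 83.5, 0.270, 55.7, 32.7 and 0 CPM, with an adjusted p of 0.0777 by edgeR. Eif2s3y of the Y chromosome had no count in females and was at least 223-fold higher in males against a floor of 3 counts over the females, with an adjusted p of 0.0940 by edgeR. Uty was at least 112-fold higher and Kdm5d at least 78.4-fold higher in males on the same floor. In all 5 of these genes the female and male pools did not overlap. They were named for their small p for sex, which favours such separation. Map10, Zfp964, Tom1l1, Lmo1, Ick and Prkg2, all outside the sex chromosomes, did not overlap either. The share of all tested genes that separate in this way was not counted, so non-overlap alone does not set these genes apart.

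The remaining genes of small p lay outside the Y chromosome. Map10 and Prkg2 had no count in the males and in the females respectively, and neither they nor Zfp964, Tom1l1, Lmo1 and Ick passed the adjusted threshold. Counts were simulated with 1 spread for all genes, the common biological coefficient of variation of 0.710. In them edgeR recovered 0% of 4-fold and 33.0% of 16-fold changes over 12085 genes. A sex difference of that size in a gene of that spread would thus mostly not be detected at this number of animals. With a low simulated spread, edgeR recovered 100% of both. The simulations did not vary the spread with level. In the pools the median CV was 0.396 at 20 to 100 CPM and 0.226 at 500 CPM and over.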

How the data were processed

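Per the submitters' processing notes, alignment by the authors used STAR 2.5.0a, and genes were counted with HTSeq on GRCm38.p6. No annotation release is named there. The deposited files hold raw counts per gene for 51912 genes, 92 spike-ins and 5 tally entries, which stayed out of library sizes. A deposited table gives the authors' signal, counts divided by a size factor, for 18754 features, used only as an alternative scaling. The HSA-NRTN libraries and the deposited comparison table were not used.

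Exon lengths came from GENCODE M21 on GRCm38, which held 51719 genes and not the other 193. Level per length needed a merged length of at least 300 bases. CPM used the TMM factors of edgeR 4.0.16 (R 4.3.3). Sex was tested with edgeR's quasi-likelihood test on 12632 genes kept by filterByExpr, and with DESeq2 1.42.0 and limma 3.58.1 as alternatives. Tests were checked on simulated counts. Description used Python 3.11.15 and pandas 2.3.3. Each pool is 1 mouse, and numbers follow record order.

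The pools, the gene lists and the rule for named genes were chosen with earlier results of these data known. Among nuclear genes with a conventional symbol, the rule named the 25 highest levels, the 15 lowest and 15 highest CVs outside the sex chromosomes, the markers, up to 6 members and any absent members per list, the 3 highest mitochondrial messages and the 12 genes of smallest p for sex. Vamp2, Hspb1, Psmb7, Ctnnb1 and the common reference genes were named outside the rule, the first 4 after their values were seen.
Some genes that the rule names are not reported here.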

Additional observations from a re-analysis of the deposited data

Results flagged for a closer look

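In 34 of 308 values tested (11.04%), the highest or lowest pool lay beyond Dixon's critical value of 0.71 for groups of 5. Chance puts about 1 in 20 groups of normally distributed values beyond it. CPM values were not shown to be normal and some hold zeros or low counts, so the share does not measure an excess. The values were CPM of named genes with a mean of at least 2 CPM, sums of gene lists, and totals and percentages of the libraries. They share pools and genes. Of the 34, 10 belong to the 15 most variable autosomal genes with a conventional symbol, which were chosen for their spread, and the other 24 fell on pools 1 to 5 in 9, 5, 1, 4 and 5 cases. Wdr26 and Camkk1, among these 24, were chosen for low spread.

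Pool 5 was high in Slc17a6 (285 CPM), and so in the excitatory interneuron sum (285 CPM, all of it this gene), in Gad2 (7.73), Cdc7 (70.0), Zfp964 (51.7) and Rab3a (1408), and low in Hpcal1 (154). Pool 1 was high in the oligodendrocyte gene Mbp (343), in Kdr (12.7) and in Col1a2 (10.3). Kdr made up most of the endothelial sum of that pool (15.3 CPM). Dcn and Lum, which share the fibroblast list with Col1a2, were lowest in pool 1. Further high values of pool 1 were mt-Nd4 (19517), Map2 (1308), the long non-coding RNA Snhg14 (624) and the calcium channel gene Cacnb4 (190). Pool 1 was high in Map10 (36.7) and Ick (47.4) as well. It was also high in Lockd (93.7), Adra2c (78.4), Atp13a1 (83.2), Mef2c (66.6), Vti1a (105) and Mbd3 (73.4), which are 6 of these 15 genes.

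Pool 2 was high in Rpl38 (172) and Rps29 (119) of the ribosome, Ndufa3 of complex I (806), Chrm2 (624) and Camkk1 (138). Pool 4 was high in Il1f9 (279), Tspo (77.9), Hprt (777), Kcnip4 (469), Kcnn3 (19.8) and the nicotinic receptor gene Chrna7 (26.2). Pool 3 was low in Wdr26 (111 CPM), the gene of lowest spread, where the other 4 pools lay between 118 and 120.2.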

How the results depend on the processing

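The share of the nuclear level held by the 100 highest genes, 26.9%, was 22.4% with no length correction, 35.2% with mitochondrial genes kept, and 26.6% to 27.3% when each pool was left out in turn. With no length correction 57 of the 100 genes were the same, against 86 with the longest transcript as length, 93 with mitochondrial genes kept and 93 to 97 with a pool left out. The number of genes detected in all pools, 11315, was 9592 at a minimum of 5 counts, 11080 at equal depth and 11455 to 12192 with a pool left out. The median CV was 0.433 at a minimum mean of 5 CPM and 0.294 at 50 CPM, and 0.306 to 0.358 with a pool left out, lowest without pool 1. Of the 100 most even genes, 39 to 54 were shared with a pool left out, 87 with RLE factors, 87 with the authors' factors and 94 by the SD of log2(CPM + 1). Of the 100 most variable, 54 to 77 were shared with a pool left out, 97 with RLE or the authors' factors and 51 by the SD of log2(CPM + 1). The mean CPM of the 25 highest genes and the 4 markers stayed within 1 SD under both other scalings. With a pool left out, the mean cannot move by 1 SD of the same 5 values, so that setting is no check of it. No other settings were run for them. With a pool left out, the CV moved in 9 of 75 values for the 15 even genes and 8 of 75 for the 15 variable genes named. For sex, edgeR called 1 gene with RLE factors and with each pool left out, always Ddx3y. It called 19 genes with no filter on low counts (14 outside the sex chromosomes) and DESeq2 called 22 (17 outside them). Limma voom called 0 genes, with 285 at an unadjusted p under 0.05. Of the values of the 12 named genes for sex under other scalings or tools, 19 passed the threshold that had not, 1 (Ddx3y under limma voom) no longer passed and 28 kept their side. In simulated counts with the common spread of the pools given to every gene, 3 of 35 edgeR calls were false. No paired analysis was possible because the labels give no number, litter or batch that pairs female with male pools. Depth limits genes near 3 counts, 0.504 to 0.809 CPM in a single pool.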
